A study of Mus musculus with 14 samples.

Results

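Voltage-gated calcium channels were examined in single retinal ganglion cells (RGCs) through 10 genes of the channel family, chosen by gene name: the pore-forming genes Cacna1a, Cacna1b, Cacna1c, Cacna1d, Cacna1e and Cacna1g, the β subunit genes Cacnb1, Cacnb3 and Cacnb4, and Cacng5 of the γ family. Of these, 9 had a probe set annotated to that gene alone, out of 18193 such genes on the array, and together they held 24 of the 45037 probe sets tested. Cacnb3 had none in the annotation used and was not analysed here. The genes were chosen with earlier results of these data known. The 14 cells were taken from adult mice of a mixed background, bred from a PV-Cre line, in which Cre follows the parvalbumin gene Pvalb, and the Ai9 tdTomato reporter. The labels give the Cre line as 129P2/OlaHsd and the reporter as C57BL/6 and 129 SV, whereas the methods give a segregating C57BL/6 and 129P2/OlaHsd background for the Cre line and C57BL/6J for the reporter. Retinas were dissociated with papain, single red cells were drawn into a glass pipette, and the cDNA of each cell, primed with oligo-dT and amplified by 35 cycles of PCR, was hybridized to 1 Affymetrix Mouse430_2 array after its library had passed a PCR screen for the RGC gene Sncg and for the lack of transcripts of rods and Müller glia. The red label marks any cell in which Pvalb was switched on at some time, so that it limits the sample to that part of the RGCs. All cells formed 1 group with no control or treatment, and no animal was named for any cell, so there was no comparison between groups and no test.

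A voltage-gated calcium channel opens when the membrane is depolarized and lets calcium into the cell, where it triggers transmitter release, shapes firing and reaches the nucleus as a signal. The α1 subunit forms the pore and fixes the channel type, while a cytoplasmic β subunit and an α2δ subunit carry the high-voltage pores to the membrane and tune their gating. The low-voltage T-type pores can work without these partners. Most proteins of the γ family are better known as partners of AMPA-type glutamate receptors than of calcium channels. In the retina, RGCs carry their output as spikes to the brain, and several calcium current types have been recorded from their somata.

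Promoter windows of 3 of the genes are shown because they belong to the gene found in the most cells (Cacng5), the gene found in the next most (Cacnb1) and the gene found in no cell (Cacna1e). Each is the most upstream RefSeq window of the gene in build GRCm38.p6, running 5′ to 3′ on the minus strand over 300 bases, 250 before the annotated start and 50 after it. The windows lie at chr11:107915006-107915305 for Cacng5, chr11:98022578-98022877 for Cacnb1 and chr1:154725871-154726170 for Cacna1e. Capitals mark the GC box letters GGGCGG, read on either strand (CCGCCC on the other).
Cacng5: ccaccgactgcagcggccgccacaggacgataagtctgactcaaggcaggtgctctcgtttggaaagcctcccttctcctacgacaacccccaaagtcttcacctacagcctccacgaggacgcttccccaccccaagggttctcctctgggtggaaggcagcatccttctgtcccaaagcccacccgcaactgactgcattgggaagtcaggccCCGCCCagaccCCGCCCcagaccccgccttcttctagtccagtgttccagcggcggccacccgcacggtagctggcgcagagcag
Cacnb1: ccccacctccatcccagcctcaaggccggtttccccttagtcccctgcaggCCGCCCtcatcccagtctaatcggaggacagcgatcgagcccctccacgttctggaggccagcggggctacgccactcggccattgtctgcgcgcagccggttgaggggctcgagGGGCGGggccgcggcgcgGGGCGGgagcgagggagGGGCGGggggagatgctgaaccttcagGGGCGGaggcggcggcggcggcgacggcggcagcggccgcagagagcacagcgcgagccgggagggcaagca
Cacna1e: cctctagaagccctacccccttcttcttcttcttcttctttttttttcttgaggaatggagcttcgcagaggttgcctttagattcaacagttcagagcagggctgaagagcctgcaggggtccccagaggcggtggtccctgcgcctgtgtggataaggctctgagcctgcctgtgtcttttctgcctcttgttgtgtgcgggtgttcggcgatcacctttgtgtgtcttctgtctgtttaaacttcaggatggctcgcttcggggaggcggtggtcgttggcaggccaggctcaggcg
The Cacng5 window held 2 GC boxes, 17 CpG and 63.3% GC. The Cacnb1 window held 5 GC boxes, 34 CpG and 73.7% GC. The Cacna1e window held no GC box, 11 CpG and 55.3% GC. None of the 3 held the TATA box letters TATAAA on either strand. Of 32851 windows of this length, 35.7% held the GC box and 13.6% the TATA box, with a median of 7 CpG and 52.7% GC. GC-rich windows were not limited to the 2 most widely detected genes, since the most upstream Cacnb4 window held 6 GC boxes and 78.3% GC. The most upstream Cacna1d window held 3 matches to the TATA box and 40.3% GC. RefSeq windows were found for 8 of the 10 genes, all but Cacna1a and Cacna1g. A match is a run of letters and not a shown binding site, and the arrays did not measure promoters.

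Signals are MAS5 intensities on a linear scale. A probe set was called detected in a cell when its signal reached 8 times the median of that array, which put the threshold at signals of 64.2 to 439.7 over the 14 arrays. At this rule a cell had 4191 to 11910 probe sets and 2540 to 6849 genes detected, with cell 5 at the low end and cell 12 at the high end. Each array measured 1 cell once, so no error is attached to a single value, and SDs describe the spread between cells. Of 14 RGC markers, a mean of 78.6% ± 9.71 (SD, n = 14 cells) was detected per cell, with Nefl and Nefm in every cell. Sncg was also in every cell, but the libraries had been screened for it. Pou4f3 was in no cell, Isl2 in 2 and Ebf3 in 7. Of 13 rod markers, 10 were detected in each of cells 3 and 6 and 1 to 4 in the others, and their summed signal was 156101 and 74677 in cells 3 and 6, against 355 to 19028 in the other 12 cells. Pde6a was at background in all 14 cells. Müller glia markers reached 7 of 12 in cell 6 and 6 in cells 1 and 4, with the highest summed signals in cell 1 (84947) and cell 6 (75157). Glul, the glutamine synthetase gene whose transcript the PCR screen looked for, was detected in 8 cells with signals up to 15865. Clu was detected in 12 cells with signals up to 55989 and weighs on the sums. Other Müller glia markers were rare, with Slc1a3, Vim and Kcnj10 in 1 cell each and Apoe, Aqp4 and Sox9 in none. Bipolar and amacrine markers averaged 22.1% ± 10.5 and 16.4% ± 7.45 of 10 each, and cone markers 1.79% ± 4.54 of 8 (SD, n = 14). Pvalb itself was detected in 13 cells and lay at 7.27 in cell 5.

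The 9 calcium channel genes read here were unevenly detected. Of the 9 genes, 5 were detected in at least 7 of the 14 cells, against a background of 24.8% of all 18193 genes. These 5 were Cacng5 (13 cells), Cacnb1 (11), Cacna1b (9), Cacna1g (9) and Cacna1a (7). Cacna1c was detected in 6 cells, Cacna1d and Cacnb4 in 5 each, and Cacna1e in no cell. A channel gene was detected in a median of 7 cells, against 1 for all genes and 5 for the 10588 genes found in at least 1 cell. These counts describe the list, which was chosen with earlier results of these data known, and carry no test. Of 15 further family genes with a probe set, 2 were detected in at least 7 cells, with a median of 1 cell. Exact 95% binomial intervals of the share of cells, which cover the drawing of 14 cells only, were wide. They take the cells as independent draws, although no animal was named and the libraries were screened. The paper also reports that brighter cells appeared to be easier to isolate. The intervals ran from 66.1% to 99.8% for Cacng5, from 49.2% to 95.3% for Cacnb1 and from 23.0% to 77% for Cacna1a. Cacnb4 and Cacna1d spanned 12.8% to 64.9%, so that neighbours in the order of cell counts overlapped. Because probe sets differ in how well they bind, this order is of detections and not of transcript levels.

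**Figure D1:**
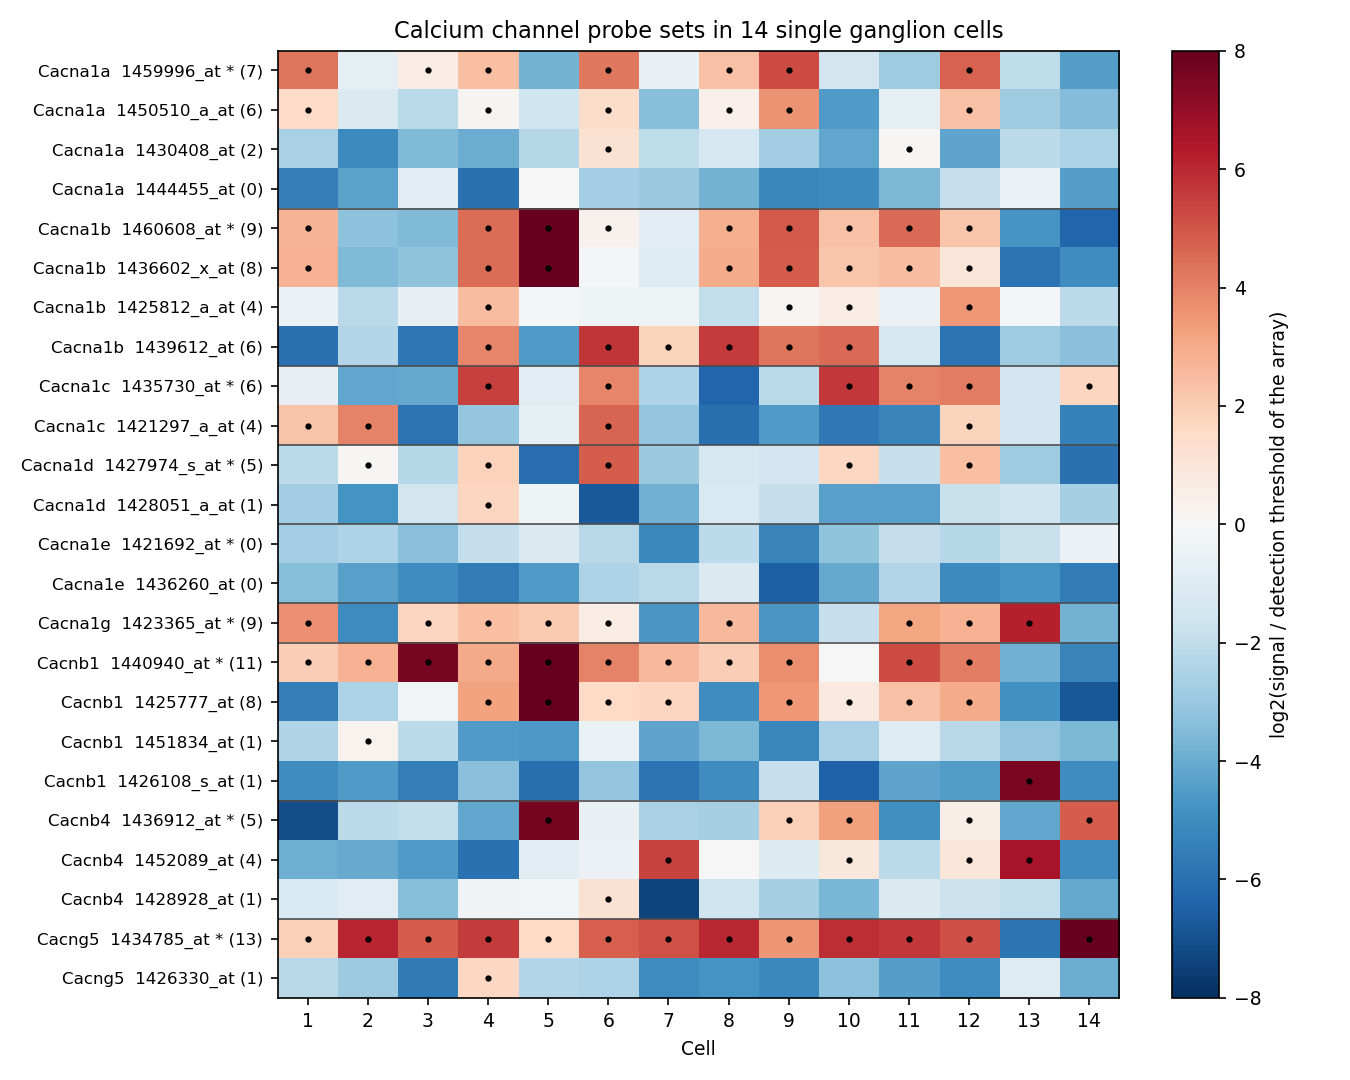
Every single-gene probe set of the 9 calcium channel genes (rows, with the number of cells in brackets) in each of the 14 cells (columns), coloured by log2 of the signal over the detection threshold of the array and clipped at 8 in either direction. Dots mark detections and asterisks the probe set that stands for the gene. Cacng5 is above the threshold in 13 cells, and both Cacna1e rows stay below it throughout.

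Among the pores of the presynaptic type, Cacna1a, which forms the P/Q-type channel of many fast synapses, was detected in cells 1, 3, 4, 6, 8, 9 and 12. Its signals in those cells were 8523, 182, 441, 2061, 594, 6381 and 3364. In the 7 other cells the lowest was 2.98 (cell 14) and the highest 105 (cell 10), and the detected and undetected cells did not overlap. A second probe set for the gene was detected in 6 of the 7 cells, all but cell 3, and in no other (r = 0.94 over 14 cells on log2(signal + 32), each point being 1 cell on 1 array). Cell 3, with a signal 1.49 times its threshold, was thus the weakest of the 7. Another probe set was detected only in cells 6 and 11, and the last in none. Cell 3 and cell 6 were also the cells with many rod markers, and without them Cacna1a was detected in 5 of 12 cells. The part of rod RNA in these detections was not tested.

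Cacna1b, the pore of the N-type channel, which like Cacna1a feeds transmitter release, was detected in 9 cells. Its signal stood far above the rest in cell 5, at 32649, which is 500 times the threshold of that array. That threshold was low, at 65.3, and cell 5 had the fewest genes detected, 2540. It was 5034 in cell 9, 2949 in cell 1, 2773 in cell 11, 1852 in cell 4, 1460.5 in cell 10, 837 in cell 8, 608 in cell 12 and 143 in cell 6. The 5 other cells lay at 0.790 to 69.2, below all 9. A probe set of the same gene followed it closely, sharing 8 of its 9 cells with r = 0.98 and reading 34358 in cell 5. A different one was detected in cells 4, 6, 7, 8, 9 and 10, with 6785 in cell 10 as its highest signal and r = 0.21 with the first. The last was detected in cells 4, 9, 10 and 12, with r = 0.36. In cell 5 these other probe sets read 2.77 and 60.9, under the threshold, so the high signal there rested on the pair that ran together. Counting any of the 4 probe sets, Cacna1b was detected in 10 cells. At least 1 of Cacna1a and Cacna1b was detected in 10 cells and both in 6, namely cells 1, 4, 6, 8, 9 and 12, which is 85.7% of the Cacna1a cells and 66.7% of the Cacna1b cells. Cells 2, 7, 13 and 14 had neither by the chosen probe sets.

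The L-type pores open for longer and in many neurons pass calcium to somatic and nuclear signalling. Cacna1c, the L-type pore also known from heart muscle, was detected in cells 4, 6, 10, 11, 12 and 14. Its signals there were 3711, 1698, 15000.3, 1817, 2231 and 215, and the highest was in cell 10. The other 8 cells lay at 1.42 to 279, and the 279 of cell 1 fell under the higher threshold of that array, so detected and undetected signals overlapped. A second Cacna1c probe set was detected in cells 1, 2, 6 and 12. It shared only 2 cells with the first (r = 0.08), so that 8 cells had a detection by either.

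Cacna1d, an L-type pore that opens at more negative voltages, was detected in cells 2, 4, 6, 10 and 12. The signals were 126, 294, 3170.0, 943 and 689, and the 9 other cells lay at 0.954 to 104. Cell 6, where the signal was highest, was also a cell with 10 of 13 rod markers and 7 of 12 Müller glia markers. The part of RNA from such cells in this signal was not tested. In cell 2 the signal was 1.06 times the threshold, the narrowest of all detections of this gene. The other Cacna1d probe set was detected in cell 4 alone, at 275, and read 1.07 in cell 6. The L-type pair was found together in cells 4, 6, 10 and 12, which are 66.7% of the Cacna1c cells and 80.0% of the Cacna1d cells. Their r of 0.71 was the highest of the 36 pairs of channel genes, but their rho of 0.53 lay under the 0.65 of Cacna1a with Cacna1d. The r was 0.73 without cells 3 and 6, 0.68 without cells 5 and 13, 0.58 on averaged probe sets and 0.56 with a pseudocount of 1. At least 1 L-type gene was detected in 7 cells.

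The Cacna1d signal has a limit of its own, in that the gene with the most similar pattern was a neighbour. Chdh, which encodes choline dehydrogenase, overlaps Cacna1d in the RefSeq annotation, and its probe set was detected in the same 5 cells with r = 0.98 over 14 cells. Its signals in cells 2, 4, 6, 10 and 12 were 173, 346, 4987, 1510 and 830. Cells 6, 10 and 12 ranked highest at both probe sets, in the same order. PCR-amplified cDNA holds both strands, so signal from the 2 overlapping genes cannot be told apart here. Against the other Cacna1d probe set, Chdh had r = -0.09. Other overlapping neighbours had no such likeness to the chosen probe sets, with r of 0.28 for Dcp1a and Cacna1d, 0.13 for Dcp1b and Cacna1c, and -0.26 for Rpl19 and Cacnb1.

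Cacna1e, the R-type pore, was the only gene of the 9 without a detection. Its chosen probe set read between 3.56 and 66.0, with a median of 26.6, and its other probe set reached at most 51.6. The closest approach to the threshold was 0.716 of it, in cell 14. The exact 95% binomial interval for 0 of 14 cells reached 23.2%, so that absence of the transcript was not shown. With a threshold of 4 times the median the gene was detected in 1 cell.

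Cacna1g, a T-type pore, opens near the resting potential and supports burst firing in several brain regions. It was detected in cells 1, 3, 4, 5, 6, 8, 11, 12 and 13. The signals were 5446, 397, 450.1, 283, 171, 705, 1059, 895 and 8067. Cell 13 was highest, and there Cacna1g was the only channel gene of the 9 detected by its chosen probe set. The 5 undetected cells lay at 3.72 to 81.8, under all detected values. The gene had 1 single-gene probe set, so no second reading of it was available. With Cacng5, Cacna1g had an r of -0.56 (rho = -0.46), the lowest r among the 36 pairs. The lowest rho was that of Cacna1g with Cacnb4 (-0.59). Cell 13 had the highest Cacna1g signal and the lowest Cacng5 signal, with 2702 genes detected. The r of this pair without cell 13 was not computed, so how far it rests on that cell was not tested.

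Of the β subunits, which bind the inner face of high-voltage pores and raise their number at the membrane, Cacnb1 was detected in more of the cells than Cacnb4. It was detected in 11 cells. The signal was 23770.1 in cell 3, 20996 in cell 5, 4392 in cell 11, 2205 in cell 12, 2190 in cell 9, 1775 in cell 6, 1738 in cell 1, 809.6 in cell 2, 756 in cell 7, 674 in cell 4 and 457 in cell 8. Cells 3 and 5 stood apart from the other 9, and cell 3 was also the cell with the highest summed rod marker signal. Undetected were cell 10, which at 283 reached 0.967 of its threshold, and cells 13 and 14, at 7.48 and 1.54. A second probe set was detected in 8 cells, among them cell 10, and shared 7 with the first (r = 0.60). It read 19522 in cell 5, but only 103 in cell 3, which was 0.847 of the threshold there. The high signal of cell 3 thus rested on the first probe set. Cells 1, 2 and 8 also lay under the threshold at the second. A further probe set was detected in cell 13 alone, where it read 19923 while the first read 7.48. Counting any probe set, Cacnb1 was found in 13 cells, all but cell 14.

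Cacnb4, the β subunit whose loss causes the lethargic mouse phenotype, was detected in cells 5, 9, 10, 12 and 14. The signals were 13304, 631, 2840.0, 191 and 1836, and the 9 other cells lay at 3.22 to 73.7. Its second probe set was detected in cells 7, 10, 12 and 13, at 5233, 538, 252 and 10418, and shared cells 10 and 12 with the first (r = -0.13). In cells 7 and 13, where the second probe set was highest, the first read 20.5 and 6.09. With any of the 3 probe sets the gene was found in 8 cells, against 5 for the chosen one, so its count depended on the probe set. At least 1 of the genes Cacnb1 and Cacnb4 was detected in 13 cells and both in cells 5, 9 and 12.

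**Figure D2:**
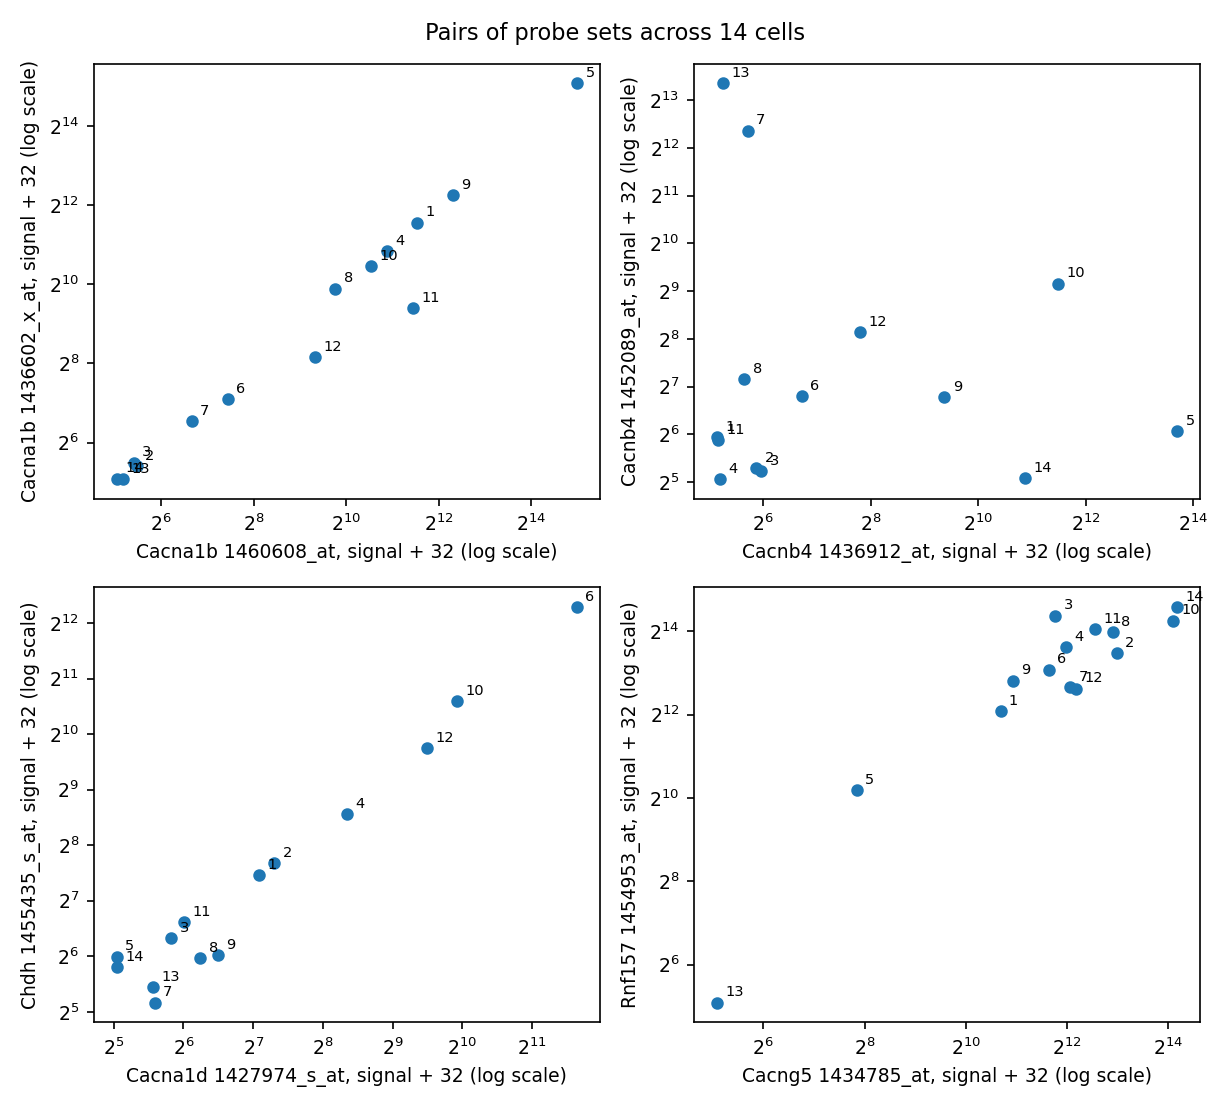
Signal plus 32, on log axes, of 4 pairs of probe sets, with 1 numbered point for each of the 14 cells. The pair for Cacna1b (r = 0.98) and the pair of Cacna1d with its overlapping neighbour Chdh (r = 0.98) lie along a line, the pair for Cacnb4 (r = -0.13) does not, and Cacng5 with Rnf157 (r = 0.94) leaves cell 13 far below the other cells.

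Cacng5 encodes a small four-pass membrane protein of the γ family that modulates AMPA receptors. By the chosen probe sets it was the most widely detected of the 9 genes. The lowest of its 13 detected signals was 198 in cell 5, and the other detected cells read 1617 in cell 1, 1922.5 in cell 9, 3160.1 in cell 6, 3467 in cell 3, 4014 in cell 4, 4254 in cell 7, 4595 in cell 12, 6000.2 in cell 11, 7647 in cell 8, 8092 in cell 2, 17483 in cell 10 and 18516 in cell 14. Cell 13, at 1.87, had a signal 0.0173 times its threshold. The gene thus had 12 cells with a signal of 1000 or more, 1 weaker cell and 1 cell at background. Its other probe set was detected in cell 4 alone, at 266, so that a single probe set carried this result. With the mean over the probe sets of a gene, Cacng5 was detected in 9 cells, as was Cacna1g. Counting any probe set, Cacnb1 was found in 13 cells as well. Only 959 of all genes, or 5.27%, were detected in 13 or more cells. The AMPA receptor subunits that γ proteins join were also common, with Gria2 and Gria4 in 12 cells, Gria3 in 11 and Gria1 in 8, and every cell had at least 2 of the 4. All 4 were thus in at least 7 cells, against 24.8% of all genes.

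**Figure D3:**
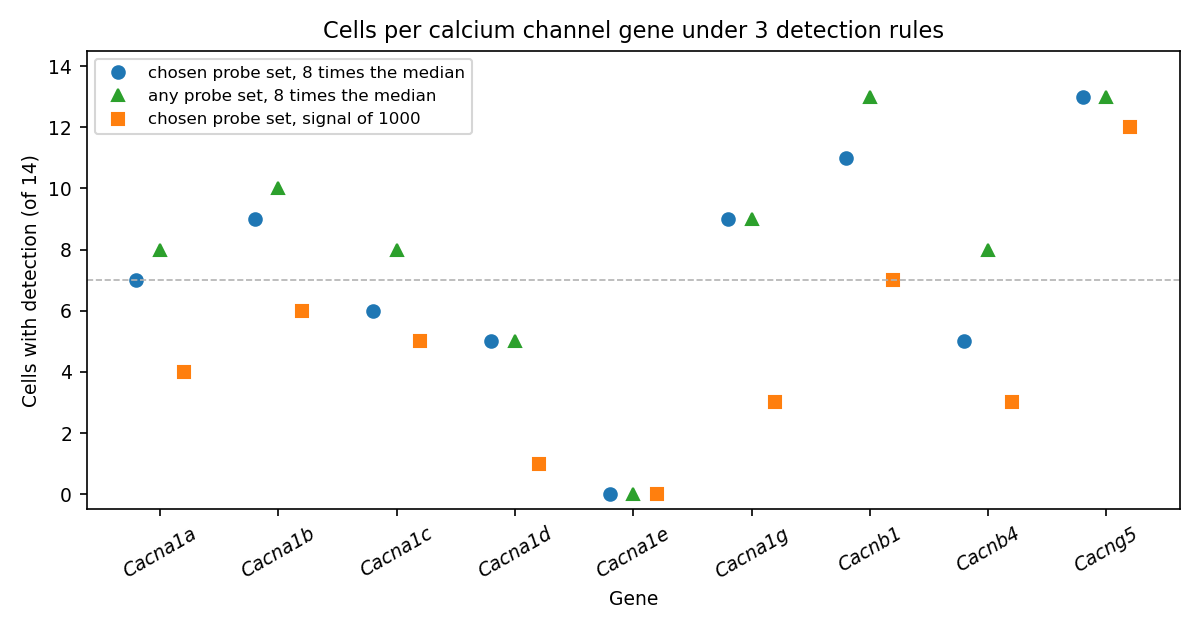
Number of the 14 cells (vertical axis) in which each of the 9 calcium channel genes was detected, by the chosen probe set at 8 times the array median (circles), by any probe set of the gene (triangles) and by the chosen probe set at a fixed signal of 1000 (squares), with the dashed line at 7 cells. Cacng5 stays at 12 or 13 cells under these 3 rules, whereas Cacna1g has 9, 9 and 3. With the mean over the probe sets of a gene, which is not drawn, both have 9.

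The strength of the calls differed between genes. Of 126 combinations of a gene and a cell, 65 were detections, 41 of them at a signal of 1000 or more and 5 of them at less than 2 times the threshold. A signal of 1000 or more was read for Cacng5 in 12 cells, Cacnb1 in 7, Cacna1b in 6, Cacna1c in 5, Cacna1a in 4, Cacna1g and Cacnb4 in 3 each and Cacna1d in 1. Such counts also depend on the probes and do not order the genes by transcript level. Probe sets of 1 gene often differed. Of 25 such pairs, 15 shared at least 1 cell and only 2, those named above for Cacna1a and Cacna1b, had an r of 0.7 or more. Over the 24 probe sets, 7 were detected in at least 7 cells, against 16% of all probe sets, and 3 in none.

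Seen by cell, the channel genes formed many different sets. The 14 cells held 12 different combinations of the 9 genes, and only 2 combinations occurred more than once, in cells 1 and 8 and in cells 4 and 6. Cell 12 had the most, with 8 genes detected, followed by cells 4 and 6 with 7 each. Cells 1, 5, 8, 9, 10 and 11 had 5 each, cell 3 had 4, cells 2 and 14 had 3, cell 7 had 2 and cell 13 had 1. On average 4.64 ± 1.95 channel genes were detected per cell (SD, n = 14), which is 51.6% ± 21.6 of the 9, while 25.2% ± 7.21 of all genes were detected in the same cells. The share of channel genes was the higher of the 2 in 12 cells, the exceptions being cells 7 and 13. For the 15 further family genes the share per cell was 19.5% ± 11.8 (SD, n = 14). Cells with more genes overall tended to hold more channel genes (r = 0.53, rho = 0.47 over 14 cells, both counts coming from the same array), and the part of library quality in the differences between cells was not tested. The 3′ to 5′ ratio of Gapdh, a sign of how far a library had lost its 5′ ends, ran at 0.13 to 1.39 on the log2 scale, with cells 13 and 14 highest, and had r = -0.33 with the number of channel genes. Cell 7 departed from the trend, with only Cacnb1 and Cacng5 detected among 5892 genes, whereas cell 5 had 5 channel genes among 2540.

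**Figure D4:**
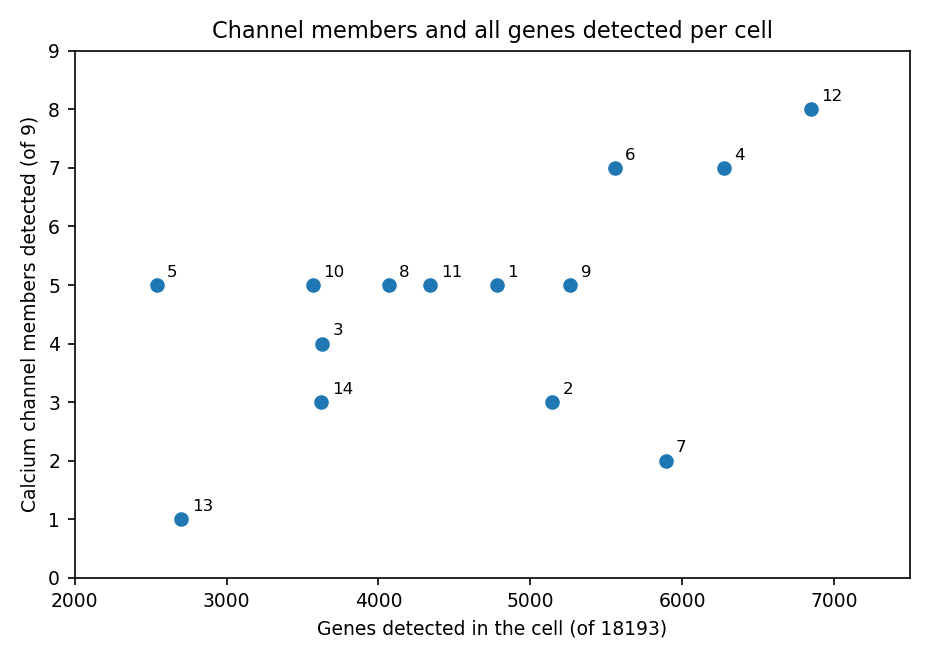
Number of the 9 calcium channel genes detected (vertical axis) against the number of all 18193 genes detected (horizontal axis), with 1 numbered point per cell. Cell 12 has the most of both, and cells 7 and 13 lie lowest, with 2 and 1 channel genes.

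The pieces of a high-voltage channel were found together in most cells. A high-voltage pore gene (Cacna1a to Cacna1e) was detected in 12 cells, and each of these 12 also had Cacnb1 or Cacnb4. At least 1 of these β genes was in 13 of the 14 cells, so the overlap says little about a link between pore and β subunit. Cell 7 had Cacnb1 with no high-voltage pore by the chosen probe sets, although there 1 of the other Cacna1b probe sets was detected. Cell 13 had neither a pore of this kind nor a β subunit by those probe sets, although other probe sets of Cacnb1 and Cacnb4 read 19923 and 10418 there. An α2δ gene was detected in 9 cells, and pore, β and α2δ together in cells 1, 2, 4, 5, 6, 8, 12 and 14. With pore and β together in 12 of the 14 cells, this overlap too says little about a link between them and α2δ. All 7 cells with Cacna1a also had Cacnb1, which is 63.6% of the Cacnb1 cells. Cacnb1 was itself in 11 of the 14 cells. Cacna1b shared 8 of its 9 cells with Cacnb1 and had an r of 0.48 with it, both being highest or next to highest in cell 5. Over all 36 pairs of channel genes, r ran from -0.56 to 0.71 with a median of 0.08, and 3 pairs reached 0.5. Besides the L-type pair these were Cacna1a with Cacna1d (0.50) and Cacna1g with Cacna1e (0.52), of which Cacna1e was below the threshold in every cell.

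The other genes of the family were read in the same way. Of 15 further channel genes with a probe set, 2 were detected in at least 7 cells, 7 in 1 to 6 cells and 6 in none, with a median of 1 cell. Of all genes, 24.8% were detected in at least 7 cells. Because the lists were chosen with earlier results of these data known, the difference between them is not a result about the family. Among the α2δ genes, which encode extracellular subunits of which some bind gabapentin, Cacna2d1 was detected in 8 cells with signals up to 6264, Cacna2d2 in 6 cells up to 3823, Cacna2d3 in cell 1 alone at 524 and Cacna2d4 in none. The T-type gene Cacna1h was detected in cells 1, 3, 6 and 7, of which cells 1, 3 and 6 also had Cacna1g. Cacna1f, the L-type pore of photoreceptor terminals, was detected in cells 2 and 13 and not in cells 3 and 6, which had the most rod markers. Cell 2 had 4 of the 13 rod markers, with a summed signal of 19028, and cell 13 had 1, with 14680. The part of rod RNA in the Cacna1f detections was not tested. The skeletal muscle genes Cacna1s and Cacng1 and the genes Cacnb2, Cacng6 and Cacng7 were in no cell. Of the other γ family genes besides Cacng1, Cacng6 and Cacng7, Cacng2 was detected in 7 cells, Cacng3 and Cacng4 in 6 each and Cacng8 in cell 5 alone. Cacng8 read 99.2 in cell 5, while a cell under its own higher threshold read 201. Cacng5 thus had the most cells of the family members measured, by the chosen probe sets.

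Genes whose products meet calcium channels at release sites were common. Of 17 with a probe set, 12 were detected in at least 7 cells, against 24.8% of all genes, with a median of 8 cells. Per cell, 62.2% ± 14.4 of the 17 were detected, against 25.2% ± 7.21 of all genes (SD, n = 14). Syt1, the calcium sensor of fast release, and the fusion proteins Snap25, Vamp1 and Vamp2 were in all 14 cells. The scaffold Bsn was in 13, and Rims1, which binds pore and β subunits, was in 11. Rims2 and Pclo were in 9 cells, Erc2 and Cask in 8, and Unc13a and Syt2 in 7. Regulators of the channel were mostly below the threshold. Of 10 such genes only Stac2, an adaptor that slows inactivation of L-type channels, passed 7 cells, with 13, beside the same 24.8% of all genes. Its signals ran from 1187 to 10263 in those cells and lay at 14.7 in cell 5. Cabp2 was detected in 2 cells, Cabp1 and Stac3 in cell 1, and the 6 others in none. Of related membrane proteins, the potassium channel partners Dpp6 and Dpp10 were in 13 and 8 cells and the sodium leak channel Nalcn in 7.

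Genes elsewhere on the array whose log2(signal + 32) followed a channel gene most closely over the 14 cells were sought among 6875 genes detected in at least 4 cells. With 1 array per cell, such values share library and depth, and with so many genes some high values are found for any pattern, so they are given as a description. For Cacna1a, 156 genes (2.27%) had an r of 0.7 or more, the most of any channel gene, and the closest were Txnrd1 (0.91), a thioredoxin reductase, Plscr3 (0.91) and Trabd (0.90). For Cacng5 the share was 1.86%, led by Rnf157 (0.94), Syt13 (0.92) and Clcn6 (0.91). The Cacng5 values leaned on its 2 lowest cells, 13 and 5, without which r was 0.74, 0.68 and 0.62. In cell 13, where Cacng5 read 1.87, Rnf157 read 2.05. For Cacna1d there were 89 genes, with Drg2 (0.88) and Ptgr2 (0.87) after Chdh.

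Fewer genes followed the others. Cacnb1 had 54, led by Paip2b (0.88), Hsp90b1 (0.86) and Chmp4b (0.86), and without the 2 farthest cells these had 0.76, 0.65 and 0.63. Hsp90b1, an endoplasmic reticulum chaperone, had a rho of only 0.50. Cacna1c had 48, led by Wscd1 (0.93), Nupr1 (0.91) and Hook3 (0.89), and these had 0.87, 0.88 and 0.89 without the 2 farthest cells. Cacna1b had 41, led by Cldn12 (0.86), Chka (0.86) and Pttg1ip (0.86), which had 0.76, 0.78 and 0.78 without the 2 farthest cells. Cacna1g had 15, led by Nampt (0.83), Thsd7a (0.79) and Tbc1d15 (0.78), which fell to 0.71, 0.66 and 0.61 without them. Cacnb4 had the fewest, 13 (0.189%), led by Poc5 (0.81), Cyth3 (0.79) and Tmem87b (0.78), which fell to 0.62, 0.63 and 0.59 without them, and for Poc5 rho was 0.37. The closest genes were different for each channel gene.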

How the data were processed

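Single adult mouse RGCs were measured on Affymetrix Mouse430_2 arrays. The deposited values were signal intensities per probe set, made by the authors with MAS5 on a linear scale. The MAS5 version was not given in the sources used here. Each array's 2% trimmed mean was 500.0, the mark of MAS5 scaling, and arrays were normalized no further. Arrays have no read depth, and the number of cells limits the precision.

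Of 45101 probe sets, 64 were controls. The array annotation gave 34945 probe sets 1 symbol, 932 several and 9160 none, and 34741 matched a GRCm38.p6 gene table by gene number, used for names and neighbours. Each gene was read at its probe set of highest mean log2 signal. Detection meant at least 8 times the array median, which none of 378 values of 27 control probe sets for other organisms reached. Likeness was Pearson's r on log2(signal + 32). Named genes were the 10 channel genes, listed family and pathway genes, Pvalb, and the 3 genes most like each channel gene found in 4 to 13 cells. The channel genes and lists were chosen with earlier results of these data known. Promoters came from RefSeq. Scripts were checked on simulated data and ran in Python 3.11.15 with numpy 2.4.6, pandas 2.3.3, scipy 1.17.1 and matplotlib 3.10.9. Thresholds, probe set rules, pseudocounts, rank correlation and left-out cells were tried as alternatives.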

Additional observations from a re-analysis of the deposited data

How the results depend on the processing

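The 5 channel genes found in at least 7 cells became 2 at a fixed signal of 1000 (15.3% of all genes) and 3 with the mean over all probe sets of the gene (16.8%), against 24.8% of all genes in the analysis reported. The median of 7 cells per gene became 4 in both cases. Averaging mixes probe sets that are detected with others that are not. Thresholds of 4 or 16 times the median, the highest control probe set, any probe set and leaving out cells 3 and 6 or cells 5 and 13 gave 4 to 7 genes, with 21.6% to 32.4% of all genes. The mean of 4.64 channel genes per cell was 2.93 at the fixed signal and 3.14 with averaged probe sets. Of 72 further cell counts per gene, 60 stayed within 1.5 times and 12 did not, and of 62 further correlations, 48 stayed at 0.7 or more, some of them well below their first value (Cacng5 with Rnf157 at 0.71 on averaged probe sets), and 14 fell under it. The genes most like each channel gene were the least stable. Of 24 genes, those shared were 13 with a pseudocount of 1, 12 with the larger one tried, 5 with Spearman's rho, 10 without cells 3 and 6, 8 without cells 5 and 13 and 1 with averaged probe sets. Leaving out the 2 farthest cells, an alternative chosen after seeing the data, lowered r of Cacnb4 with Poc5 to 0.62. No paired analysis was possible because all cells formed 1 group. Weak signals near the threshold and 3′-biased cDNA limit what a missing detection can show.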

Other observations

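Genes that clear or store calcium were also read. Of 14 pumps, exchangers and store channels with a probe set, 4 passed the threshold in 7 or more cells, 5 in fewer and 5 in none, with a median of 2 cells. The share in 7 or more cells was near the 24.8% of all genes. The endoplasmic reticulum pump Atp2a2 and the plasma membrane pump Atp2b2 were in all 14 cells, at 1942 to 77103 and 245 to 32410. Atp2b3, another plasma membrane pump, and the sodium-calcium exchanger Slc8a3 were in 11 cells each, and Atp2b1 and Slc8a1 in 6. The ryanodine receptor Ryr2 was in cells 1, 2 and 12, while Ryr1, Ryr3, Atp2a3, Atp2b4 and Itpr2 were in none.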
